A study of Mus musculus with 11 samples.

Results

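The extracellular matrix genes examined here encode collagens, laminins and 6 linkers or glycoproteins (Nid1, Nid2, Hspg2, Fn1, Sparc and Sparcl1), and they were set beside the integrin genes, whose products bind matrix at the cell surface. Members were picked by symbol. Every numbered collagen alpha chain, every laminin alpha, beta or gamma chain and every integrin alpha or beta subunit was taken, and genes that only share a stem with the integrins, such as Itgb1bp1, were left out. This gave 88 of the 45803 genes listed: 44 collagen, 11 laminin, 6 linker or glycoprotein and 27 integrin genes. RNA bound to tagged ribosomes of endothelial cells was sequenced in 11 libraries of adult C57BL/6 mice, per the labels' protocols. The groups were tumours of Eltd1-/- mice, called knockout here (n = 2), tumours of wild type mice (n = 3), healthy brain of Eltd1-/- mice (n = 3) and healthy brain of wild type mice (n = 3). The tumours were formed by GL261, a mouse glioma cell line placed in the brain. The mice of the 4 groups carried eGFP-tagged ribosomal protein L10a, driven by the promoter of the endothelial cadherin VE-cadherin, so the pull-down is as selective as that promoter and the bead washing were. The protocol speaks of 3 mouse samples a group, and the files of 2 knockout tumours were used. Each library is a separate mouse sample, and p-values reflect the spread between these samples.

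Brain capillaries rest on a basement membrane, a thin sheet woven from a collagen IV network and a laminin network that nidogens and perlecan hold together. Laminins are trimers of 1 alpha, 1 beta and 1 gamma chain, and endothelial cells are known to make laminins with the alpha 4 and alpha 5 chains. Fibril-forming collagens make the ropes of connective tissue, which healthy brain holds mainly in its meninges and around larger vessels, and other collagens sit on those fibrils or between them. Integrins are pairs of an alpha and a beta subunit that span the membrane, bind these proteins and link them to the actin skeleton. Those with the beta 2 subunit are found on leukocytes.

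Values were FPKM, that is fragments divided by transcript length in kilobases and by the size of the library. The files hold no read counts, so the depth behind a value is unknown and no interval for counting error is printed. An exact 0 can be a failed estimate, since 4 of 13 mitochondrial mRNAs were listed at 0 in every library. Wild type tumour 2 stood apart, with 42.7% of tested genes at 0 and 22 of the 64 tested members among them. Wild type brain 1 had 25.7% of tested genes at 0, wild type brain 2 had 22.6%, and the other libraries had 7.79% to 14.4%. Adgrl4, the current symbol of Eltd1, had 11.5 and 5.82 FPKM in knockout tumours, against 45.0, 192 and 27.4 FPKM in wild type tumours, and 21.6, 23.6 and 22.2 FPKM in knockout brains, against 166, 82.7 and 153 FPKM in wild type brains. The labelled cell type was checked by 17 endothelial markers. Pecam1 and Cdh5, both junction proteins of endothelium, were above 0 in every library, and the summed markers reached 359 to 852 FPKM in tumour libraries, against 2015 to 2863 FPKM in brain libraries. Over both genotypes 0 of the 17 rose in tumour and 13 fell. Markers of other cells were present too, so these libraries hold RNA beyond that of endothelium. Neuron markers summed to 4958 to 6587 FPKM in brain libraries, more than the endothelial markers there, and to 102 to 3029 FPKM in tumour libraries. Oligodendrocyte markers summed to 978 to 1541 FPKM in brain libraries, against 287 to 960 FPKM in tumour libraries, and 7 of 9 fell in tumour. In bulk RNA, fewer cells of a type and less RNA per cell cannot be told apart.

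The main comparison set tumour against healthy brain, averaged over both genotypes. A gene was tested where it reached 1 FPKM in at least 2 libraries, which 15604 genes and 64 of the 88 members did, and it was called at an adjusted p under 0.05 in limma, with Benjamini-Hochberg adjustment over all tested genes. Of the 64 tested members 23 rose in tumour (35.9%), against 12.6% of all tested genes, and 3 fell (4.69%), against 17.6%. The median log2 change, on the log2(FPKM + 1) scale used for every change here, was 0.75 over the tested members and -0.25 over all tested genes. A member that passed the filter only because it was high in tumour had to differ, so these counts are a description. The 23 that rose were 10 of 27 tested collagens (37.0%), 2 of 10 laminin chains (20%), 2 of 6 linkers (33.3%) and 9 of 21 integrins (42.9%). Those that fell were 1 collagen, 1 laminin chain and 1 linker. The median log2 change was 1.00 over collagens, 0.71 over linkers and 0.76 over integrins, but -0.57 over laminin chains, below that of all tested genes. All 5 tumour libraries lay above all 6 brain libraries for 15 members, or 23.4%, against 8.73% of all tested genes, and they lay below them for 3, or 4.69%, against 12.3%. Quantile normalization brought the median of all genes to -0.06 and gave 26 members higher (40.6%), against 16.1% of all tested genes, and 2 lower (3.12%), against 16.1%. Upper quartile scaling gave 25 members higher (39.1%), against 14.4%, and 2 lower (3.12%), against 14.2%. Markers of microglia and macrophages summed to 151 to 427 FPKM in tumour libraries, against 43.7 to 70.0 FPKM in brain libraries, with 9 of 15 higher. Of the 9 glioma and neural progenitor markers 7 rose in tumour and 2 fell, Egfr and Prom1. The 9 summed to 361 to 533 FPKM in tumour libraries, against 201 to 438 FPKM in brain libraries. Among those that rose, Olig2 had 55.9 to 110 FPKM in tumour, against 1.46 to 7.82 FPKM in brain. Prom1 had 9.70 to 134 FPKM in tumour, against 125 to 327 FPKM in brain. Mural markers, of pericytes and smooth muscle, summed to 272 to 628 FPKM in tumour libraries, against 47.4 to 82.3 FPKM in brain libraries, and 3 of 12 tested rose (Mcam, Cspg4 and Anpep). Mcam, which endothelium also carries, held most of that sum in each tumour library, though not in each brain library. Without Mcam and Cspg4 the range was 8.68 to 37.2 FPKM in tumour, against 22.3 to 32.2 FPKM in brain. The pericyte receptor Pdgfrb was at 0 to 2.22 FPKM in tumour, against 0 to 3.64 FPKM in brain. The part of these cells in the counts was not tested. Of the 24 members left untested, 4 (Col10a1, Itgad, Itgb6 and Itgb2l) were listed at 0 in all 11 libraries, and the highest value of the others was 4.36 FPKM, for Col26a1 in knockout brain 2. The annotated spans of 46 members, 33 of them tested, overlap another gene, and the use of strand in the counting is not stated, so reads in the overlaps could belong to either gene.

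**Figure D1:**
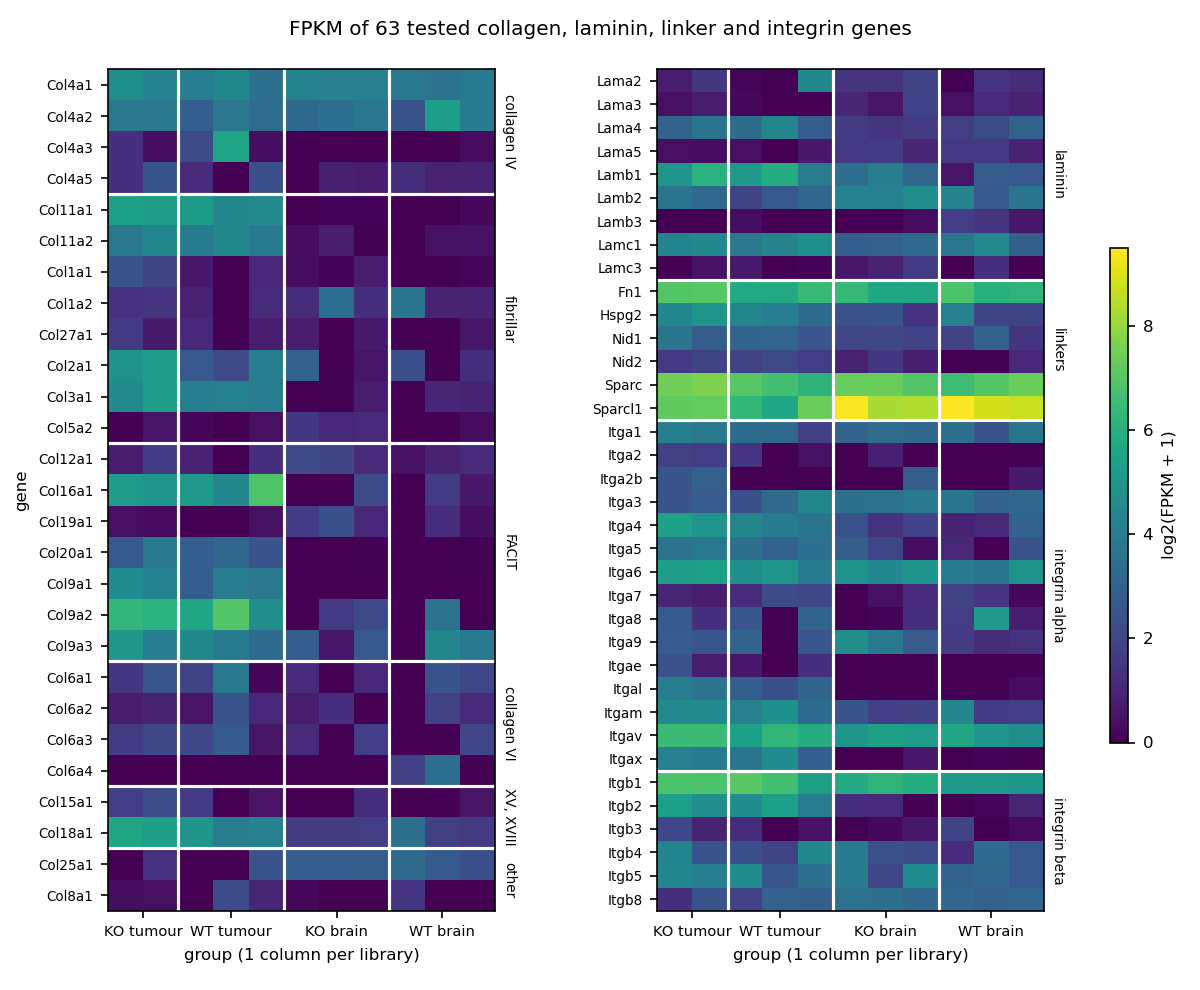
FPKM of 63 of the 64 tested members, as log2(FPKM + 1) by colour, with 1 row per gene grouped by class (marked at the right) and 1 column per library. The bright blocks in the 5 tumour columns mark collagens XI, IX, XVI and XVIII and the leukocyte integrins, while Sparcl1 is brightest in the brain columns, and wild type tumour 2 and wild type brain 1 show many genes at 0.

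The stretch of DNA before a gene's start is shown for Col9a2, Col3a1, Col18a1 and Itgb1, since they stand for a cartilage-type collagen, a fibril-forming collagen, a basement membrane collagen and a widely used receptor subunit that all rose in tumour. Each sequence is the 250 bases before the start in RefSeq's table of GRCm38.p6, read 5′ to 3′ on the gene's strand, and capitals mark matches on either strand to the CCAAT box in those letters, the GC box in the letters GGGCGG, the TATA box in the letters TATAAA or any of the SOX-type words ACAAAG, its variant ACAATG, or the shifted form AACAAT. The windows are chr4:121039316-121039565 (plus strand) for Col9a2, chr1:45311288-45311537 (plus strand) for Col3a1, chr10:77166531-77166780 (minus strand) for Col18a1 and chr8:128685404-128685653 (plus strand) for Itgb1.
Col9a2: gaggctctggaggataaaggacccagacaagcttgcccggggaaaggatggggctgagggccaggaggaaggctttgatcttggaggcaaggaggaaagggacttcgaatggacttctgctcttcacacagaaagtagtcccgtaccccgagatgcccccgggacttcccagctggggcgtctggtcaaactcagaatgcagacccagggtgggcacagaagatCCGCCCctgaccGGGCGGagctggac
Col3a1: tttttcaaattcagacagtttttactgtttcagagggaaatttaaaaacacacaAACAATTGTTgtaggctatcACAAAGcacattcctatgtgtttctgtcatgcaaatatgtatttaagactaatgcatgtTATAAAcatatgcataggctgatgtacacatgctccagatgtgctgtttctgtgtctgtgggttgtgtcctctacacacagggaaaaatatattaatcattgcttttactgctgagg
Col18a1: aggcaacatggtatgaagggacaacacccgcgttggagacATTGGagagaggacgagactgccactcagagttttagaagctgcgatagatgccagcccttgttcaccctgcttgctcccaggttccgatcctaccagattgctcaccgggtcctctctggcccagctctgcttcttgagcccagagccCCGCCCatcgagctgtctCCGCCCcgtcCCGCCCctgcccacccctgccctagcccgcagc
Itgb1: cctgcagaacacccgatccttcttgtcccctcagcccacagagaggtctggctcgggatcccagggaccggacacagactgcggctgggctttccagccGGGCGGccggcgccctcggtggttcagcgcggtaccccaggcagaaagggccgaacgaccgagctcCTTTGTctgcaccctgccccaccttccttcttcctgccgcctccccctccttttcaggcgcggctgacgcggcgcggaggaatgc
Col9a2 held 2 GC boxes and none of the other words. Col3a1 held 1 TATA box and 3 SOX-type matches, of which 2 overlap, and no GC box. Col18a1 held 1 CCAAT box and 3 GC boxes in the window shown, and Itgb1 held 1 GC box and 1 SOX-type match. Another RefSeq window of Col18a1, chr10:77113706-77113955 inside the gene's span, is not shown and held none of these words. Over 68 promoter windows of 62 members, 48.5% held a GC box, against 32.7% of all 32851 windows of the same length in the table. A CCAAT box was in 26.5% of member windows, against 33.8% of all windows, a TATA box in 7.35%, against 12.4%, and a SOX-type word in 13.2%, against 29.6%. A match describes letters in the window and shows no binding.

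Collagens II, IX and XI, which together build the thin fibrils of cartilage, rose in tumour in 5 of their 6 genes. The 6 genes summed to 215 and 190 FPKM in knockout tumours and 127, 196 and 97.5 FPKM in wild type tumours, against 13.3, 3.38 and 9.24 FPKM in knockout brains and 4.05, 30.4 and 15.3 FPKM in wild type brains. Every tumour library was above every brain library in this sum. They made up 33.7% to 55.3% of all collagen FPKM in tumour and 5.26% to 26.9% in brain. Col11a1, the alpha 1 chain of collagen XI, lies at chr3:114030479-114220756 and had 40.4 and 36.5 FPKM in knockout tumours and 34.7, 19.4 and 21.1 FPKM in wild type tumours, against 0, 0.0626 and 0.0677 FPKM in knockout brains and 0, 0 and 0.146 FPKM in wild type brains. It was at or near 0 in all 6 brain libraries and rose by 4.92 (SE 0.39, adjusted p = 1.59e-05) in limma's fit. Col11a2, the partner chain at chr17:34038919-34066684, had 13 and 19.6 FPKM in knockout tumours and 13.6, 20.8 and 13.9 FPKM in wild type tumours, against 0.283, 0.744 and 0.0296 FPKM in knockout brains and 0, 0.34 and 0.383 FPKM in wild type brains, again without overlap, and rose by 3.73 (SE 0.41, adjusted p = 9.23e-05). Col9a1 codes for a chain of collagen IX, which decorates collagen II fibrils, and it lies at chr1:24177589-24252738. Its values were 23.8 and 17.2 FPKM in knockout tumours and 6.21, 14.9 and 12.9 FPKM in wild type tumours, and it was listed at 0 in all 6 brain libraries, so no fold is given; limma called it higher at an adjusted p of 5.89e-05. Col9a2, at chr4:121039566-121055325, had 78.1 and 65.7 FPKM in knockout tumours and 46.9, 123 and 24.6 FPKM in wild type tumours, against 0, 2.07 and 3.46 FPKM in knockout brains and 0, 10.6 and 0 FPKM in wild type brains. The lowest tumour value of Col9a2 was above the highest brain value, and the rise was 4.74 (SE 0.74, adjusted p = 0.000958). Col9a3, the last chain of that trimer, had 9.11 to 31.7 FPKM in tumour, against 0 to 19.5 FPKM in brain, so the tissues overlapped and the change of 1.84 (SE 0.79, adjusted p = 0.0977) did not pass. Col2a1, the single chain of collagen II at chr15:97975602-98004724, had 27.9 and 35.7 FPKM in knockout tumours and 5.26, 3.47 and 16 FPKM in wild type tumours, against 7.23, 0 and 0.467 FPKM in knockout brains and 4.05, 0 and 1.39 FPKM in wild type brains. Both knockout tumours were high, 2 of the wild type tumours lay below the highest brain library, and the rise was 2.80 (SE 0.68, adjusted p = 0.0105). The 5 calls held in every alternative run on this comparison. The part of glioma cell RNA in these rises was not tested. Where brain was at or near 0, the size of a change rested on the pseudocount: with 0.1 in place of 1 it was 7.80 for Col11a1, 5.69 for Col11a2, 6.54 for Col9a2, 6.09 for Col3a1, 6.5 for Col16a1, 6.00 for Col20a1, 6.11 for Itgb2 and 6.55 for Itgax. That pseudocount ended the calls of Col1a1 (adjusted p = 0.0658), Itga5 (0.0667), Itga2 (0.0540), Lama4 (0.0522), Lama5 (0.0634) and Nid2 (0.0876).

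**Figure D2:**
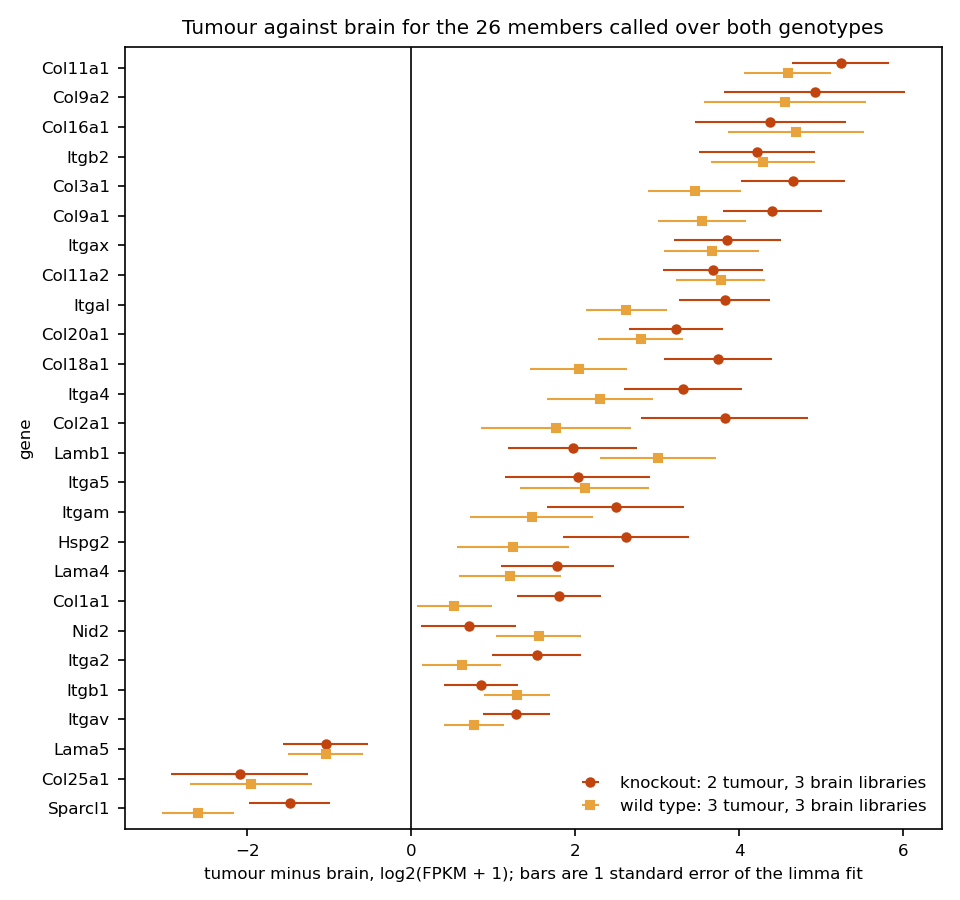
Tumour minus brain log2 change of the 26 members called over both genotypes (rows), with knockout as circles and wild type as squares and bars of 1 standard error from the limma fit. 23 genes lie right of 0 in both genotypes and Lama5, Col25a1 and Sparcl1 lie left of it; the positions of genes at or near 0 in brain, such as Col9a1, Col11a1, Col20a1, Itgal, Itgax and Itga2, depend on the pseudocount of 1.

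The fibril-forming collagens I, III and V of ordinary connective tissue were less abundant than these in every tumour library. Of their 6 genes 2 rose, and Col5a1 and Col5a3 did not reach the filter and were not tested. Summed, they reached 29.1 and 44.6 FPKM in knockout tumours and 18.1, 17.1 and 19.2 FPKM in wild type tumours, against 3.51, 11.0 and 4.15 FPKM in knockout brains and 12.4, 1.90 and 2.31 FPKM in wild type brains. In knockout brain 2 and wild type brain 1 this sum was above that of collagens II, IX and XI. Col3a1, which makes the single chain of collagen III and lies at chr1:45311538-45349706, held most of the tumour sum. It had 22.2 and 38.2 FPKM in knockout tumours and 16, 17.1 and 15.3 FPKM in wild type tumours, against 0, 0.0278 and 0.659 FPKM in knockout brains and 0, 1.02 and 0.878 FPKM in wild type brains. The groups did not overlap, and the rise was 4.06 (SE 0.43, adjusted p = 7.55e-05). Col1a1, the alpha 1 chain of collagen I, stayed low at 0 to 4.49 FPKM in tumour, against 0 to 0.673 FPKM in brain, with the 2 knockout tumours highest and wild type tumour 2 at 0. Its rise of 1.17 (SE 0.34, adjusted p = 0.0243) was lost without knockout tumour 1 (adjusted p = 0.0872) or knockout brain 2 (0.0523). Col1a2, the partner chain, had 0 to 1.73 FPKM in tumour, against 0.881 to 11.9 FPKM in brain, and was not called (-0.88, SE 0.64, adjusted p = 0.324). Col5a2, a chain of the collagen V that starts collagen I fibrils, had 0 to 0.439 FPKM in tumour, against 0 to 1.91 FPKM in brain (-0.47, SE 0.30, adjusted p = 0.261), and Col5a1 stayed at or under 0.700 FPKM in all 11 libraries. Col27a1, a fibril-forming collagen of cartilage, was not called either (0.55, SE 0.36, adjusted p = 0.275). Of the 10 tested fibroblast markers 2 rose, which were Col1a1 and Col3a1, and 2 fell, Fmod and Ptgds. Lum was at or under 2.83 FPKM in every library, Dpt and Mfap5 were listed at 0 in all 11, and the markers without collagens summed to 122 to 328 FPKM in tumour, against 329 to 567 FPKM in brain. Ptgds and Apod together held most of that sum in every library. Ptgds had 0 to 135 FPKM in tumour, against 163 to 445 FPKM in brain. Apod had 72.1 to 171 FPKM in tumour, against 66.5 to 174 FPKM in brain.

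Collagens that sit on or between fibrils and do not form them include collagen XVI and collagen XX, and both rose. Col16a1, at chr4:130047817-130099277, had 37.5 and 30.4 FPKM in knockout tumours and 34, 19.99 and 116 FPKM in wild type tumours, against 0, 0 and 3.61 FPKM in knockout brains and 0, 2.14 and 0.567 FPKM in wild type brains. Wild type tumour 3 was the highest library by far, every tumour library was above every brain library, and the rise was 4.54 (SE 0.62, adjusted p = 0.000425). Col20a1, at chr2:180983323-181017545, had 5.44 and 13.1 FPKM in knockout tumours and 6.21, 8.13 and 4.39 FPKM in wild type tumours, against 0, 0 and 0.0438 FPKM in knockout brains and 0, 0 and 0.0494 FPKM in wild type brains. It was at or near 0 in brain and rose by 3.02 (SE 0.39, adjusted p = 0.000289). Col12a1 and Col19a1 of the same class were not called, with -0.32 (SE 0.42, adjusted p = 0.593) for Col12a1 and -0.86 (SE 0.38, adjusted p = 0.111) for Col19a1. The calls for Col16a1 and Col20a1 held in every alternative run on this comparison.

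Collagen IV, the sheet-forming collagen of the basement membrane, did not pass the test in any of its 4 tested genes. The 6 genes summed to 42.1 and 35.8 FPKM in knockout tumours and 27.8, 78.4 and 24.6 FPKM in wild type tumours, against 25.6, 28.3 and 30.2 FPKM in knockout brains and 18.6, 50.9 and 29.4 FPKM in wild type brains. Col4a1, at chr8:11198423-11312889, had 25.4 and 17.7 FPKM in knockout tumours and 16.3, 20.7 and 10.1 FPKM in wild type tumours, against 17.1, 16.6 and 16.4 FPKM in knockout brains and 12.9, 11.4 and 13.8 FPKM in wild type brains. The tissues overlapped, and the change was 0.28 (SE 0.31, adjusted p = 0.521). Col4a2, its head-to-head neighbour at chr8:11312805-11449287, had 12.7 and 13 FPKM in knockout tumours and 6.25, 12.4 and 9.59 FPKM in wild type tumours, against 8.3, 10.1 and 12.4 FPKM in knockout brains and 4.38, 38.7 and 14.4 FPKM in wild type brains. Wild type brain 2 was the highest library, and the change was -0.12 (SE 0.50, adjusted p = 0.88). The annotated spans of the pair share 85 bases, so reads there could be counted for either gene. The ratio of Col4a2 to Col4a1 was 0.383 to 0.945 in tumour libraries, against 0.340 to 3.40 in brain libraries. Col4a3, whose product is typical of kidney and lung basement membranes, had 1.49 and 0.28 FPKM in knockout tumours and 3.58, 45.2 and 0.27 FPKM in wild type tumours, against 0, 0 and 0 FPKM in knockout brains and 0, 0 and 0.239 FPKM in wild type brains, and 1 library, wild type tumour 2, held most of the signal (1.71, SE 0.75, adjusted p = 0.107). Col4a5 was low at 0 to 4.48 FPKM in tumour, against 0 to 1.36 FPKM in brain (0.74, SE 0.48, adjusted p = 0.267), and Col4a4 and Col4a6 stayed at or under 0.157 and 1.04 FPKM. As a share of all collagen FPKM, collagen IV made up 8.52% to 21.7% in tumour libraries, against 29.3% to 46.9% in brain libraries. With Col4a3 left out of both sums, collagen IV came to 33.1 FPKM in wild type tumour 2, and its share was 8.43% to 10.5% in tumour, against 29.3% to 46.9% in brain. The summed collagen reached 258 to 389 FPKM in tumour, against 60.4 to 113 FPKM in brain. With laminins, linkers and glycoproteins added, the whole matrix sum overlapped between the tissues, at 611 to 997 FPKM in tumour, against 627 to 1060 FPKM in brain. Linkers and glycoproteins alone summed to 228 to 515 FPKM in tumour, against 508 to 938 FPKM in brain. Integrins summed to 248 to 474 FPKM in tumour, against 143 to 212 FPKM in brain.

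Collagen XVIII, another collagen of vessel basement membranes, rose. Its gene Col18a1, whose product is also the source of the fragment endostatin, lies at chr10:77052178-77166530. It had 48 and 37.6 FPKM in knockout tumours and 29, 15.2 and 16.5 FPKM in wild type tumours, against 2.24, 2.21 and 2.28 FPKM in knockout brains and 10.2, 2.49 and 2.09 FPKM in wild type brains. Both knockout tumours were highest, the tissues did not overlap, and the rise was 2.89 (SE 0.44, adjusted p = 0.000862). Col15a1, its relative of the multiplexin class, was low at 0 to 3.79 FPKM in tumour, against 0 to 1.34 FPKM in brain, and the change of 1.07 (SE 0.42, adjusted p = 0.074) did not pass. The beaded filaments of collagen VI were low as well, and 0 of 4 tested genes were called. Col6a1 had 0.136 to 13.3 FPKM in tumour, against 0 to 4.43 FPKM in brain. Col6a2 had 0.402 to 4.55 FPKM in tumour, against 0 to 2.53 FPKM in brain. For Col6a3 the values were 0.459 to 5.52 FPKM in tumour, against 0 to 2.92 FPKM in brain, so each of these chains overlapped between the tissues. Of the remaining classes, Col8a1, a short-chain collagen of vessel walls, had 0 to 3.47 FPKM in tumour, against 0 to 1.84 FPKM in brain (0.43, SE 0.45, adjusted p = 0.507). Col25a1, a membrane-bound collagen of neurons, had 0 and 1.59 FPKM in knockout tumours and 0, 0 and 4.37 FPKM in wild type tumours, against 5.87, 5.8 and 5.93 FPKM in knockout brains and 8.83, 5.46 and 3.96 FPKM in wild type brains. It was listed at 0 in 3 of 5 tumour libraries and fell by 2.03 (SE 0.56, adjusted p = 0.0183), a call lost without knockout tumour 1 (adjusted p = 0.104). Neuron markers, of which 9 of 10 fell, summed to 102 to 3029 FPKM in tumour, against 4958 to 6587 FPKM in brain, and their part in the fall of Col25a1 was not tested.

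**Figure D3:**
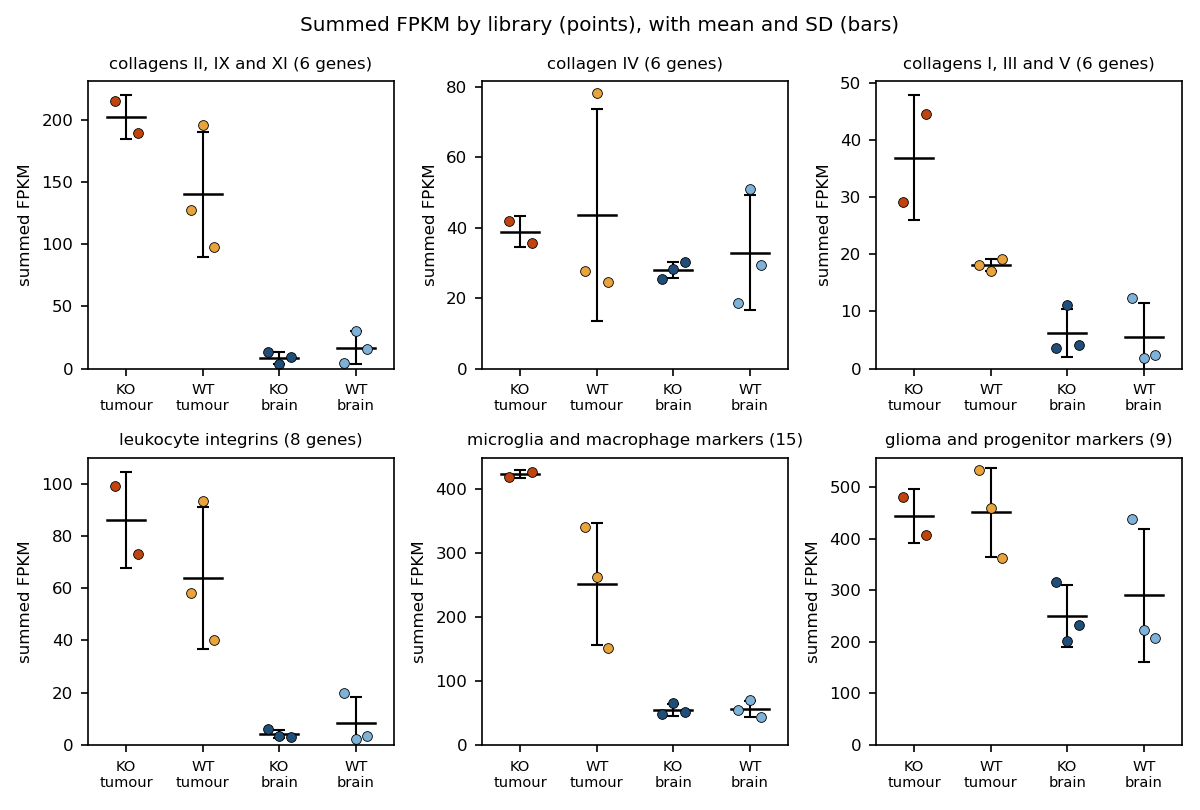
Summed FPKM of gene groups in each library (points), with the group mean as a line and the SD as bars, in knockout tumour (n = 2), wild type tumour, knockout brain and wild type brain (n = 3 each). Collagens II, IX and XI and the leukocyte integrins stand higher in every tumour library than in any brain library, as do the microglia and macrophage markers, while the collagen IV sums of the tissues overlap.

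Among the laminins the beta 1 and alpha 4 chains rose and the alpha 5 chain fell. Lamb1, the beta 1 chain, lies at chr12:31265146-31329644. Its levels were 30.2 and 66.1 FPKM in knockout tumours and 33.3, 58.1 and 14.9 FPKM in wild type tumours, against 9.85, 15.9 and 7.68 FPKM in knockout brains and 0.453, 5.88 and 5.14 FPKM in wild type brains. Wild type brain 1 was lowest, the lowest tumour value was just under the highest brain value, and the rise was 2.49 (SE 0.53, adjusted p = 0.00532). Lamb2, the beta 2 chain that is typical of mature vessels, had 11.4 and 8.62 FPKM in knockout tumours and 2.84, 5.17 and 7.74 FPKM in wild type tumours, against 17.6, 17.1 and 24 FPKM in knockout brains and 18.2, 5.17 and 11.7 FPKM in wild type brains, and the change of -0.92 (SE 0.42, adjusted p = 0.119) did not pass. Within the library, Lamb1 made up 65.8% to 91.8% of the beta chain FPKM in tumour, against 2.16% to 48.2% in brain, with no overlap. Lama4, the alpha 4 chain of endothelial laminins at chr10:38965515-39110188, had 7.11 and 12 FPKM in knockout tumours and 9.28, 19.6 and 5.8 FPKM in wild type tumours, against 2.19, 1.66 and 2.12 FPKM in knockout brains and 2.31, 3.4 and 7.1 FPKM in wild type brains, and rose by 1.49 (SE 0.46, adjusted p = 0.0308). Wild type tumour 2 was highest, and wild type tumour 3 lay under the highest brain library. Lama5, the other endothelial alpha chain, lies at chr2:180176373-180225904 and was low, with 0.314 and 0.27 FPKM in knockout tumours and 0.301, 0 and 0.51 FPKM in wild type tumours, against 1.95, 2.17 and 1.02 FPKM in knockout brains and 1.98, 1.99 and 0.936 FPKM in wild type brains. It did not overlap between the tissues and fell by 1.04 (SE 0.35, adjusted p = 0.0402). Of Lama4 plus Lama5, Lama5 made up 0% to 8.08% in tumour, against 11.7% to 56.6% in brain. Lamc1, the gamma 1 chain that most laminins contain, had 18.7 and 20.4 FPKM in knockout tumours and 12.7, 17.9 and 25.3 FPKM in wild type tumours, against 6.13, 6.48 and 8.54 FPKM in knockout brains and 12.2, 21.4 and 6.3 FPKM in wild type brains, and did not pass (0.96, SE 0.39, adjusted p = 0.0818). Lama3 and Lamb3, chains known from epithelial laminin, were not called. Lama3 had 0 to 0.709 FPKM in tumour, against 0.324 to 2.73 FPKM in brain. Lamb3 had 0 to 0.248 FPKM in tumour, against 0 to 2.27 FPKM in brain. Lama2, a chain of muscle and perivascular astrocyte laminin, was at 20.4 FPKM in wild type tumour 3 and at or under 2.85 FPKM elsewhere (0.07, SE 0.76, adjusted p = 0.955), Lamc3 was at or under 2.18 FPKM and Lama1 at or under 0.543 FPKM.

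The alpha chain calls of the laminins were the less stable ones. Lama4 lost its call without knockout tumour 1 (adjusted p = 0.0695), knockout tumour 2 (0.125), wild type tumour 1 (0.0527), wild type brain 1 (0.0575) or 2 (0.0537), or knockout brain 1 (0.0552), 2 (0.0628) or 3 (0.0586). Lama5 lost its call without knockout tumour 1 or 2 (0.107 each), wild type tumour 1 (0.0636) or 2 (0.0564), wild type brain 1 (0.0625) or 2 (0.0650), or knockout brain 1 (0.0698) or 2 (0.0726), and under upper quartile scaling (0.0549) and quantile normalization (0.143). The Lamb1 call held in every alternative run on this comparison.

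**Figure D4:**
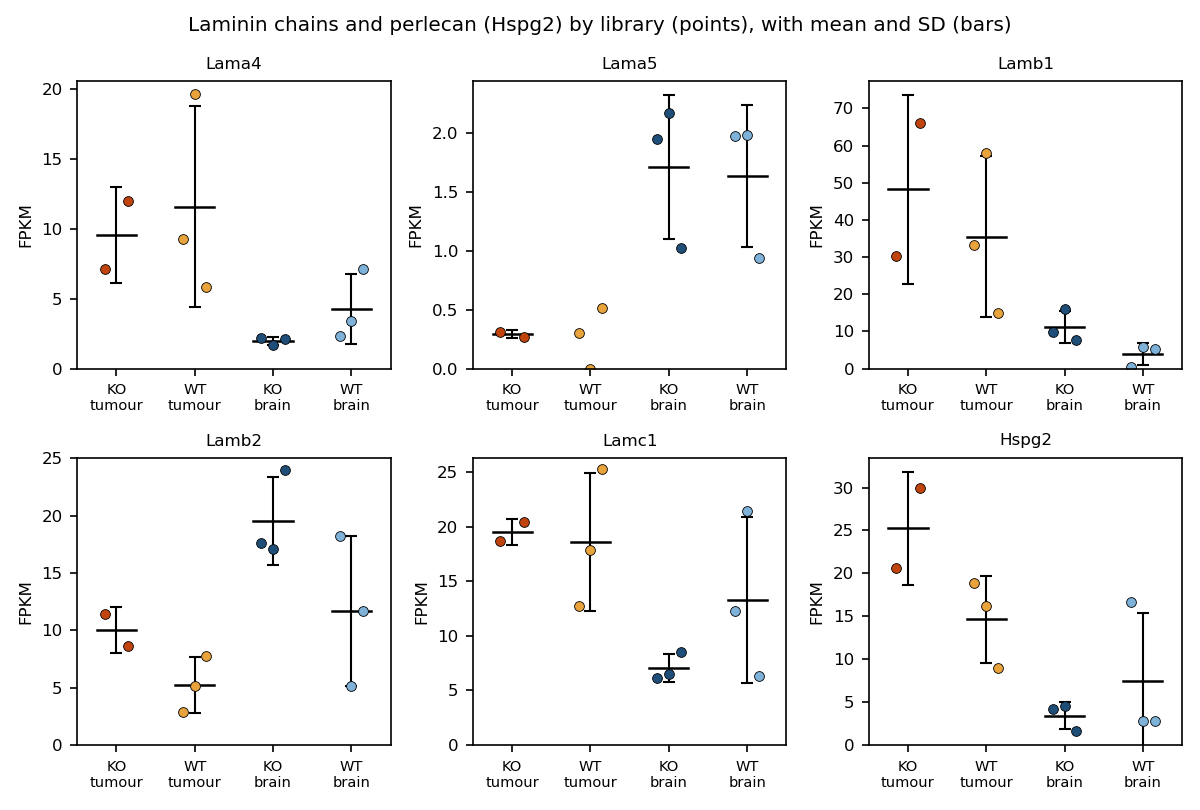
FPKM of 5 laminin chains and Hspg2 in each library (points), with group means and SDs as bars where no library of the group was listed at 0, in knockout tumour (n = 2), wild type tumour, knockout brain and wild type brain (n = 3 each). Lama5 lies lower in every tumour library than in any brain library, Lamb1 is mostly higher in tumour, and bars that would pass below 0 stop at the axis.

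Of the linkers and glycoproteins of the matrix, perlecan and nidogen 2 rose and Sparcl1 fell. Hspg2, which codes for the heparan sulfate proteoglycan perlecan at chr4:137468751-137570630, had 20.6 and 29.9 FPKM in knockout tumours and 18.8, 16.2 and 9.03 FPKM in wild type tumours, against 4.18, 4.5 and 1.61 FPKM in knockout brains and 16.7, 2.82 and 2.85 FPKM in wild type brains. Wild type brain 1 lay among the tumour libraries, and the rise was 1.93 (SE 0.51, adjusted p = 0.0157), lost without knockout tumour 1 (adjusted p = 0.0521) or knockout tumour 2 (0.0706). Nid2, at chr14:19751257-19811787, joins laminin to collagen IV and had 2.01 and 2.91 FPKM in knockout tumours and 2.9, 3.27 and 2.39 FPKM in wild type tumours, against 0.859, 1.88 and 0.755 FPKM in knockout brains and 0, 0.0461 and 1.12 FPKM in wild type brains. Its tissues did not overlap and the rise was 1.13 (SE 0.39, adjusted p = 0.0472), but the call was lost without any 1 of 10 of the 11 libraries in turn, wild type brain 3 being the exception, with adjusted p between 0.0501 and 0.139. Nid1, the other nidogen, had 4.74 to 11.5 FPKM in tumour, against 1.74 to 6.65 FPKM in brain, and did not pass (1.02, SE 0.44, adjusted p = 0.102). Sparcl1, a matricellular protein known from brain vessels and astrocytes, was the most abundant member in brain. It lies at chr5:104079108-104114088 and had 144 and 153 FPKM in knockout tumours and 77.3, 49.7 and 159 FPKM in wild type tumours, against 696, 309 and 331 FPKM in knockout brains and 710.3, 477 and 418 FPKM in wild type brains. Every tumour library was below every brain library, and it fell by 2.04 (SE 0.33, adjusted p = 0.00123), in every alternative run on this comparison. Astrocyte markers, of which 4 of 9 fell and 1 rose, summed to 284 to 743 FPKM in tumour, against 942 to 1627 FPKM in brain, and their part in this fall was not tested. Sparc, its relative that binds collagen, had 69.2 to 194 FPKM in tumour, against 93.2 to 163 FPKM in brain, with a change of -0.02 (SE 0.24, adjusted p = 0.962). The ratio of Sparc to Sparcl1 was 0.435 to 2.00 in tumour libraries, against 0.131 to 0.514 in brain libraries. Fn1, fibronectin, had 52.1 to 129.5 FPKM in tumour, against 47.6 to 112 FPKM in brain, and was not called (0.39, SE 0.26, adjusted p = 0.286).

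Integrins of leukocytes rose in 4 of 5 tested genes. The 8 leukocyte integrin genes (Itgb2, Itgb7, Itgal, Itgam, Itgax, Itgad, Itgae and Itgb2l) summed to 99.1 and 73.1 FPKM in knockout tumours and 58.1, 93.4 and 40.1 FPKM in wild type tumours, against 5.99, 3.61 and 2.98 FPKM in knockout brains and 19.8, 2.41 and 3.52 FPKM in wild type brains. Itgb2, the shared beta 2 subunit at chr10:77530329-77565708, had 40.3 and 24.8 FPKM in knockout tumours and 23.3, 40.2 and 15.4 FPKM in wild type tumours, against 1.39, 1.23 and 0 FPKM in knockout brains and 0, 0.0976 and 0.982 FPKM in wild type brains, and rose by 4.26 (SE 0.47, adjusted p = 0.000104). Itgax, the alpha X subunit (CD11c) at chr7:128129526-128150657, had 16.7 and 14.5 FPKM in knockout tumours and 11.5, 22.8 and 6.25 FPKM in wild type tumours, against 0, 0 and 0.501 FPKM in knockout brains and 0, 0.0561 and 0 FPKM in wild type brains, and rose by 3.76 (SE 0.44, adjusted p = 0.000142). Both were at or near 0 in brain, without overlap. Itgal, the alpha L subunit of LFA-1 at chr7:127296139-127335137, had 15.4 and 11.2 FPKM in knockout tumours and 6.08, 3.94 and 7.38 FPKM in wild type tumours, and it was listed at 0 in 5 of 6 brain libraries and at 0.244 FPKM in wild type brain 3, so no fold is given for the call (adjusted p = 0.000135). Itgam, the alpha M subunit (CD11b) of myeloid cells at chr7:128062640-128118491, had 21.5 and 21.7 FPKM in knockout tumours and 16.4, 26.5 and 8.91 FPKM in wild type tumours, against 4.45, 2.38 and 2.48 FPKM in knockout brains and 19.8, 2.26 and 2.29 FPKM in wild type brains. Wild type brain 1 lay among the tumour libraries, and the rise of 1.98 (SE 0.56, adjusted p = 0.0205) was lost without knockout tumour 1 (0.0779) or knockout tumour 2 (0.0698). Itgae had 0 to 4.07 FPKM in tumour and was listed at 0 in all brain libraries (adjusted p = 0.0525), Itgb7 stayed at or under 1.18 FPKM, and Itgad and Itgb2l were listed at 0 throughout. Beside these values, Lyz2, a lysozyme of macrophages, had 124 and 128 FPKM in knockout tumours and 107, 62.3 and 19.6 FPKM in wild type tumours, against 0 to 6.45 FPKM in brain libraries. The part of leukocyte RNA in these rises was not tested.

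A further 5 integrin genes rose: Itga4, Itga5, Itgav, Itgb1 and Itga2. Itga4, the alpha 4 subunit that binds VCAM-1 and fibronectin and is known from leukocytes, lies at chr2:79255426-79333114. It had 42.9 and 30.3 FPKM in knockout tumours and 18.8, 13.9 and 11.4 FPKM in wild type tumours, against 4.22, 1.62 and 2.76 FPKM in knockout brains and 0.904, 1.06 and 6.78 FPKM in wild type brains, without overlap, and rose by 2.81 (SE 0.48, adjusted p = 0.00177). Itga5, the alpha 5 subunit of the main fibronectin receptor at chr15:103344286-103366791, had 11.4 and 13.5 FPKM in knockout tumours and 10.3, 6.93 and 10.00 FPKM in wild type tumours, against 5.91, 3 and 0.269 FPKM in knockout brains and 1.16, 0 and 4.59 FPKM in wild type brains, again without overlap (2.07, SE 0.59, adjusted p = 0.0212). Itgav, the alpha V subunit of the vitronectin receptors at chr2:83722303-83806917, had 87.8 and 88.2 FPKM in knockout tumours and 41.6, 75.7 and 57.7 FPKM in wild type tumours, against 30.1, 41.3 and 36.2 FPKM in knockout brains and 48.6, 30.1 and 24.1 FPKM in wild type brains. Wild type tumour 1 lay below the highest brain library, and the rise was 1.03 (SE 0.27, adjusted p = 0.0157). Itgb1, the beta 1 subunit that pairs with most alpha subunits, lies at chr8:128685654-128733579. Its levels were 111 and 111 FPKM in knockout tumours and 135, 98.9 and 40.9 FPKM in wild type tumours, against 55.6, 71.5 and 58 FPKM in knockout brains and 32.7, 33.6 and 32 FPKM in wild type brains. Wild type tumour 3 lay below all 3 knockout brains, and the rise was 1.07 (SE 0.30, adjusted p = 0.0203). Itga2, a collagen-binding subunit, had 0 to 2.6 FPKM in tumour and was listed at 0 in 5 of 6 brain libraries (adjusted p = 0.0436). Without knockout tumour 1 the adjusted p was 0.0715 for Itga5, 0.0623 for Itgav, 0.0746 for Itgb1 and 0.111 for Itga2, and without knockout tumour 2 it was 0.0755, 0.0547, 0.0660 and 0.0929 in the same order. Itga2 was also lost without wild type tumour 1 (0.0769) or 3 (0.0504), any wild type brain library (0.0654 to 0.0712), or knockout brain 1 (0.0847) or 3 (0.0901).

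The alpha subunits Itga1, Itga3, Itga6 and Itga7, which bind laminin or collagen, did not pass. Itga6, the laminin-binding alpha 6 subunit, had 14 to 41.2 FPKM in tumour, against 12 to 29.5 FPKM in brain (0.48, SE 0.33, adjusted p = 0.303), and Itga1, which binds collagen IV, had 2.45 to 16.1 FPKM in tumour, against 4.52 to 12 FPKM in brain (0.17, SE 0.44, adjusted p = 0.801). The Itga1 span contains Pelo, so reads of that gene could be counted for either. Itga3, another laminin receptor, had 4 to 19.1 FPKM in tumour, against 6.81 to 13.4 FPKM in brain, and Itga7 had 0.688 to 3.57 FPKM in tumour, against 0 to 2.64 FPKM in brain. Itgb4, the partner of alpha 6 in epithelia, had 2.84 to 20.6 FPKM in tumour, against 1.29 to 13.6 FPKM in brain (0.55, SE 0.66, adjusted p = 0.558). Among partners of alpha V, Itgb5 had 4.78 to 23.8 FPKM in tumour, against 3.02 to 23.7 FPKM in brain (0.65, SE 0.55, adjusted p = 0.393), Itgb3 had 0 to 3.05 FPKM in tumour, against 0 to 2.74 FPKM in brain (0.51, SE 0.46, adjusted p = 0.422), and Itgb8 had 1.4 to 6.46 FPKM in tumour, against 6.6 to 11 FPKM in brain (-1.04, SE 0.43, adjusted p = 0.0856). Itgb8, known from astrocytes as an activator of TGF-beta, was lower in each tumour library than in any brain library and yet missed the threshold. Itga8 was at 33.8 FPKM in wild type brain 2 and at or under 7.07 FPKM elsewhere, and Itga9 had 0 to 7.17 FPKM in tumour, against 1.2 to 24.9 FPKM in brain, with the highest values in knockout brains.

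Taken by genotype, tumour against brain gave partly overlapping calls. In knockout mice 13 of 64 tested members rose (20.3%), against 4.79% of all tested genes, and 0 fell, against 2.29%, so 13 were called in either direction, against 7.08%. In wild type mice 14 rose (21.9%), against 7.70%, and 1 fell (1.56%), against 11.7%. Calls in both genotypes covered 12 genes (Col11a1, Col9a2, Col3a1, Col9a1, Col16a1, Itgb2, Itgax, Itgal, Col18a1, Col11a2, Itga4 and Col20a1), which is 92.3% of the 13 and 85.7% of the 14. Over all tested genes, 601 were higher in both, which is 80.3% of the 748 in knockout and 50.0% of the 1201 in wild type mice. Col2a1 was called in knockout mice with 3.83 (SE 1.02, adjusted p = 0.0444), against 1.77 (SE 0.91, adjusted p = 0.195) in wild type mice. Lamb1 was called in wild type mice with 3.01 (SE 0.71, adjusted p = 0.014) and not in knockout mice, with 1.97 (SE 0.79, adjusted p = 0.151), and the same held for Itgb1, with 1.29 (SE 0.40, adjusted p = 0.0438) in wild type and 0.85 (SE 0.45, adjusted p = 0.27) in knockout mice. Sparcl1 fell by 2.60 (SE 0.44, adjusted p = 0.00314) in wild type mice and had -1.48 (SE 0.49, adjusted p = 0.0932) in knockout mice. The test of the difference between the genotypes called 0 members. Over all tested genes in wild type mice, upper quartile scaling moved the share of rises among the calls to 51.8% and quantile normalization to 52.2%, against 39.7% unscaled. The same shares in knockout mice were 76.5% and 63.3%, against 67.7% unscaled. In knockout mice, the count of 13 fell to 6 without knockout tumour 1 and to 5 without knockout tumour 2, and without knockout tumour 1 the count over all 15604 genes was 145, against 748 with it.

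Within 1 genotype many calls ended when a single library was left out. The log2 change in the 25 fits that ended a knockout call was 82.5% to 107% of that with all libraries, and in the 20 that ended a wild type call it was 72.4% to 101%. In knockout mice Col9a2 changed by 4.80 without knockout tumour 1 and 5.05 without knockout tumour 2, against 4.92 with both, and Col16a1 by 4.24 and 4.53, against 4.38. In knockout mice, leaving out knockout tumour 1 ended the calls of Col16a1, Col18a1, Col2a1, Col9a2, Itga4, Itgax and Itgb2 (adjusted p from 0.0724 for Itgax to 0.244 for Col2a1). Leaving out knockout tumour 2 ended those of Col11a2, Col16a1, Col18a1, Col20a1, Col2a1, Col9a2, Itga4 and Itgax (0.0520 for Itgax to 0.201 for Col2a1). Without knockout brain 1 the calls of Col16a1 (0.0614) and Col9a2 (0.0761) ended, without knockout brain 2 those of Col16a1 (0.0601), Col2a1 (0.137), Col9a2 (0.0547) and Itga4 (0.0685), and without knockout brain 3 those of Col2a1 (0.127) and Itga4 (0.0578). Col2a1 was also lost without wild type tumour 1 (0.0582) or wild type brain 3 (0.0650). In wild type mice the change of a gene is the same whichever knockout library is left out, since only the estimate of the spread then differs. Itgb1 kept its call only with wild type tumour 3 left out, and leaving out any other library gave an adjusted p of 0.0595 to 0.146. Col18a1 was lost without knockout tumour 1 (0.0579) or 2 (0.0571), wild type tumour 1 (0.114), or wild type brain 2 (0.0926) or 3 (0.101). Itga4 was lost without knockout tumour 1 (0.0509) or 2 (0.0503), wild type tumour 1 (0.0931), or wild type brain 1 (0.0853) or 2 (0.0859). Col11a1, Col3a1, Col9a1 and Itgal kept their calls in both genotypes in each of these fits.

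Knockout was then compared with wild type within each tissue, and 0 of the 64 tested members passed in limma in either tissue. In tumour 5 members had an unadjusted p under 0.05 (7.81%), against 3.11% of all tested genes, of which 0.0192% passed the adjusted threshold. In brain 7 members had one (10.9%), against 4.35%, and 0.00641% of all genes passed. The test of the difference between the genotype effects called 0 members as well, with 1 member at an unadjusted p under 0.05 (1.56%), against 3.18%, and 0.00641% of all genes passing. The median knockout minus wild type log2 difference in tumour was 0.45 over tested members and 0.16 over all genes, both unscaled. Quantile normalization brought the median of all genes to -0.03, and the median of the members under it was not computed. Both knockout tumours lay above all 3 wild type tumours for 22 members (34.4%), against 10.8% of all tested genes, and below them for 1 (1.56%), against 4.61%. Without wild type tumour 2, chosen for its many zeros after the data were seen, the counts were 27 higher (42.2%), against 16.3%, and 2 lower (3.12%), against 11.3%. In brain, knockout lay above wild type without overlap for 7 members (10.9%), against 4.68%, and below it for 3 (4.69%), against 3.84%.

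In tumour the 4 members of smallest p were Itga2b, Col1a1, Sparc and Fn1, each with an adjusted p of 1. Itga2b, the alpha IIb subunit of platelets, had 4.53 and 6.63 FPKM in knockout tumours and was listed at 0 in all 3 wild type tumours (unadjusted p = 0.0052). Of 8 platelet markers 5 (Pf4, Ppbp, Gp9, Gp6 and Treml1) were listed at 0 in all 11 libraries. The 8 summed to 3.55 and 2.97 FPKM in knockout tumours, against 2.02, 0 and 0.640 FPKM in wild type tumours, without overlap, and to 0 to 7.96 FPKM in brain libraries. Among them Gp1ba, a platelet glycoprotein, had 3.08 and 1.04 FPKM in knockout tumours, against 1.23, 0 and 0.640 FPKM in wild type tumours, and the part of platelets in the Itga2b values was not tested. Col1a1 had 4.49 and 2.87 FPKM in knockout tumours, against 0.588, 0 and 1.12 FPKM in wild type tumours, a difference of 1.62 on the log2 scale with an SE of 0.51. Sparc averaged 183 ± 15.3 FPKM (SD) in knockout tumours (n = 2) and 99.3 ± 30.1 FPKM (SD) in wild type tumours (n = 3), a difference of 0.92 on the log2 scale with an SE of 0.36. Fn1 averaged 126 ± 5.19 FPKM (SD) in knockout tumours (n = 2) and 63.4 ± 17.2 FPKM (SD) in wild type tumours (n = 3), a difference of 1.01 on the log2 scale with an SE of 0.39. These genes did not overlap between the genotypes, and none passed the adjusted threshold. Endothelial markers summed to 765 and 722 FPKM in knockout tumours, against 550, 852 and 359 FPKM in wild type tumours, and microglia and macrophage markers to 419 and 427 FPKM, against 341, 262 and 151 FPKM. Their part in these differences was not tested.

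In brain the 4 members of smallest p were Col5a2, Itga9, Lamb3 and Col6a4, again with an adjusted p of 1. Col5a2 had 1.91, 1.16 and 1.26 FPKM in knockout brains, against 0, 0 and 0.254 FPKM in wild type brains (1.17 on the log2 scale with an SE of 0.40). Itga9, the alpha 9 subunit that binds tenascin-C, had 24.9, 13.2 and 5.59 FPKM in knockout brains, against 2.18, 1.2 and 1.54 FPKM in wild type brains (2.36 on the log2 scale with an SE of 0.82). Lamb3 had 0, 0 and 0.253 FPKM in knockout brains, against 2.27, 1.75 and 0.522 FPKM in wild type brains (-1.15 on the log2 scale with an SE of 0.42). Col6a4 was listed at 0 in all knockout brains, against 2.52, 9.87 and 0 FPKM in wild type brains. For the difference between the genotype effects the smallest p belonged to Fn1 (1.48 on the log2 scale with an SE of 0.53), followed by Col18a1, Itga2b and Col1a1, with an adjusted p of 1.00 for each. Fn1 in brain had 79.7, 47.6 and 48.6 FPKM in knockout mice, against 112, 61.5 and 72.0 FPKM in wild type mice.

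**Figure D5:**
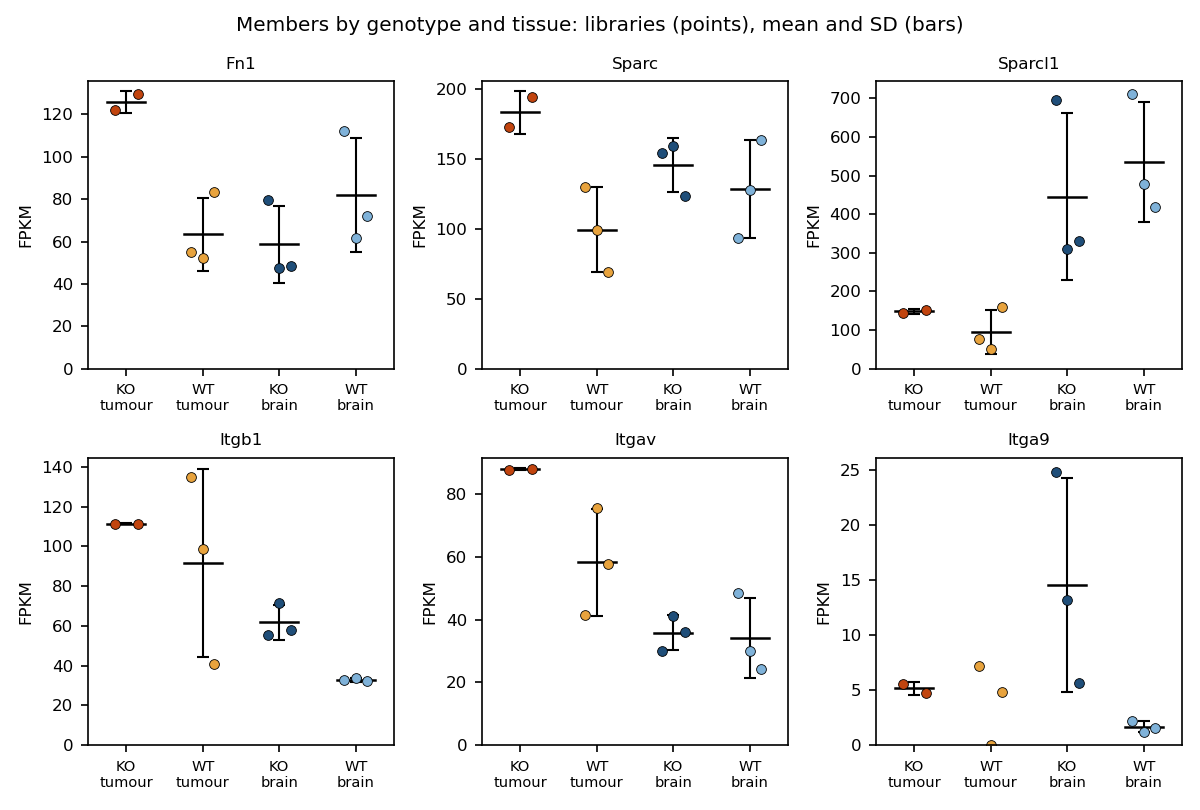
FPKM of 6 members in each library (points), with group means and SDs as bars where no library of the group was listed at 0, in knockout tumour (n = 2), wild type tumour, knockout brain and wild type brain (n = 3 each). Fn1 and Sparc lie higher in both knockout tumours than in any wild type tumour, Itga9 is highest in knockout brains, and Sparcl1 is lower in every tumour library than in any brain library.

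Genes that make, accompany or read the matrix were counted over both genotypes in tumour against brain. Of 29 tested genes of collagen making and cross-linking 9 rose (31.0%), against 12.6% of all tested genes, and 1 fell (3.45%), against 17.6%, with a median log2 change of 1.04, against -0.25 over all tested genes. Pcolce, an enhancer of procollagen cleavage, rose by 5.62 (SE 0.63, adjusted p = 0.000104), Loxl3, a lysyl oxidase, by 3.35 (SE 0.44, adjusted p = 0.000318), Adamts14, a procollagen protease, by 3.07 (SE 0.43, adjusted p = 0.000511), and P3h2, a prolyl hydroxylase, by 2.90 (SE 0.48, adjusted p = 0.00135). Of 36 other matrix proteins 6 rose (16.7%) and 10 fell (27.8%), with a median of -0.21. Emilin1, of elastic fibres, rose by 6.5 (SE 0.43, adjusted p = 6.37e-06), and Tgfbi, a secreted integrin ligand, by 4.44 (SE 0.55, adjusted p = 0.000208). Mgp, the matrix Gla protein that restrains calcification, fell by 4.46 (SE 0.58, adjusted p = 0.00033), and Spock2, a brain proteoglycan, by 2.95 (SE 0.28, adjusted p = 3.80e-05). Of 13 matrix receptors that are not integrins 3 rose (23.1%) and 1 fell (7.69%). Those that rose were Cd44 (3.66, SE 0.48, adjusted p = 0.00034) and Hmmr (3.71, SE 0.61, adjusted p = 0.00127), both receptors of hyaluronan, and Ddr2 (3.22, SE 0.47, adjusted p = 0.000661), a collagen receptor kinase. Cd44 was also counted above among the glioma and neural progenitor markers. Bcam, a receptor of laminin alpha 5, fell by 2.79 (SE 0.59, adjusted p = 0.00532). Of 32 adaptors and signalling proteins of integrins 8 rose (25%) and 3 fell (9.38%), with a median of 0.29. Among them were Fermt3, the kindlin of blood cells, at 2.62 (SE 0.52, adjusted p = 0.00396), Tns3 at 1.90 (SE 0.37, adjusted p = 0.00326), Kank1 at 2.24 (SE 0.45, adjusted p = 0.00414), and Lims2 at -1.92 (SE 0.29, adjusted p = 0.000785). Between the genotypes 0 genes of these 4 lists were called in either tissue.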

How the data were processed

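Per the labels' protocols, RNA bound to tagged endothelial ribosomes was isolated from tumour or brain, ribosomal RNA was depleted, and stranded libraries were sequenced. The deposited values are FPKM, 1 per gene and library, made by the authors, per the file headers. TopHat2 2.1.1, Cufflinks 2.2.1 and GRCm38 are named per the submitters' processing notes, with no roles given. Each library listed 46073 entries; 210 repeated symbols (480 entries) were summed, which left 45803 genes. Low values were searched for steps of whole reads, and 0.617% to 2.06% of low genes shared the top ratio in a pair of libraries, so no counts could be recovered.

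Genes with at least 1 FPKM in at least 2 libraries were tested on log2(FPKM + 1), unscaled, with limma 3.58.1 (R 4.3.3; lmFit, contrasts.fit, eBayes with trend; 7 residual degrees of freedom). The test code was first tested on simulated data. The 6 contrasts were tumour minus brain in each genotype and in their mean, knockout minus wild type in each tissue, and the difference of these. Tests were two-sided, with Benjamini-Hochberg adjustment over 15604 genes and a threshold of 0.05. Positions and promoters came from RefSeq tables of GRCm38. Members and gene lists were chosen with earlier results of these data known. Members called in a contrast or belonging to a set list were named, and in a contrast without calls the 4 of smallest p. Col9a3, Col12a1, Col19a1, Col27a1 and Itgae were named in addition after their values were seen. The values of 1 tested member are not reported here; it is included in the counts. Alternatives changed the pseudocount, filter, scaling, weights and libraries. The sums without Col4a3 and without Mcam and Cspg4 were chosen after seeing the data. Other sums over part of a class, such as that of collagens II, IX and XI, were not named in the plan.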

Additional observations from a re-analysis of the deposited data

How the results depend on the processing

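In the tumour against brain comparison averaged over both genotypes, 15 of 26 named calls held in every alternative, and 0 named results reversed in any comparison. Leaving out 1 library at a time gave 14 to 24 members higher (23 with all) and 1 to 4 lower (3 with all). Library weights gave 29 higher and 5 lower. In knockout mice, 4 of 13 named calls held throughout. The members higher (13 with all) came to 8 with a pseudocount of 0.1, 25 with library weights and 5 to 16 with 1 library left out, and those lower (0 with all) to 3 with library weights, 2 without wild type tumours 2 and 3 together and 0 to 1 with 1 library left out. In wild type mice, 10 of 15 named calls held. The members higher (14 with all) came to 9 when only the groups compared were fitted and 11 to 15 with 1 library left out. Those lower (1 with all) came to 3 without the filter, 3 with library weights, 2 without wild type tumours 2 and 3 together and 1 to 3 with 1 library left out. The count without 1 of the 2 knockout tumours rests on fewer samples, with the lone library assumed to vary like the other groups; for the other settings the cause was not tested. Members called between the genotypes numbered 0 with each library left out in turn. No paired analysis was possible because the replicate numbers only name samples and pair none across groups. The limits are 2 to 3 mice a group, unknown depth, exact zeros that can be failed estimates, and tumour and brain libraries that hold different shares of other cell types.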

Other observations

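Several members were high in only 1 or 2 libraries. Col4a3 had 45.2 FPKM in wild type tumour 2 and at most 3.58 FPKM in the other 10 libraries. Itga8, a receptor subunit of smooth muscle, had 33.8 FPKM in wild type brain 2, and Lama2 had 20.4 FPKM in wild type tumour 3. Col6a4 was listed at 0 in all libraries other than wild type brain 1 (2.52 FPKM) and wild type brain 2 (9.87 FPKM).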
